A study of Mus musculus with 6 samples.

Results

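Solute carriers are membrane proteins that move ions, metals, sugars, amino acids, nucleotides and vitamins across the plasma membrane and the membranes of mitochondria, lysosomes and the Golgi apparatus. Most work by exchange or cotransport along ion gradients and consume no ATP themselves. In developing thymocytes they supply glucose, amino acids, iron and phosphate to dividing cells, and the mitochondrial members pass ATP and metabolites between the matrix and the cytosol.

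The genes described here are those whose symbol starts with Slc and a digit and that have a probe set annotated to that gene alone, apart from 5 genes of glucose uptake, lactate transport and the red cell membrane (*Slc2a1*, *Slc2a3*, *Slc16a1*, *Slc16a3* and *Slc4a1*), which were left out. Of 262 such genes on the array, 257 remained, and the 166 described below were chosen by signal. For each gene the probe set with the highest mean was read, and it had to lie at or above its array's 40th percentile in at least 3 of the 6 arrays. The other 91 genes lay below that limit. Of the 166, 147 were at or above the percentile in all 6 arrays, and 0 passed through the arrays of 1 group alone. *Slc5a9* was singled out because it differed between the groups, so its values are a description and it is left out of every count of genes that passed a test, which is over the 165 other members. All genes that passed the same limit, 8693 of 12394, served as the background. Just inside the limit lay *Slc7a7*, *Slc1a1* and *Slc22a13*, whose array values ran from 4.95 to 5.49 on the log2 scale. Just outside lay *Slc38a5*, *Slc7a10* and *Slc8a2*, with values from 4.76 to 5.57.

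Expression was measured in thymocytes from untreated CD3e-/- mice of the C57BL6 strain at 3 weeks of age, on 6 Affymetrix mouse genome arrays. All 6 arrays are labelled as lacking Cd3ε, a subunit of the pre-TCR without which thymocytes do not mature past the double negative DN3a stage. The *Cd3e* probe set nevertheless read 8.41 to 8.72, and whether it lies in the deleted part of the gene is not stated by the sources. The 3 arrays labelled SCLtg LMO1tg come from mice that also carry SCL driven by the Sil promoter and LMO1 driven by the Lck promoter, which is active in T cell precursors, and the 3 control arrays come from CD3e-/- mice without transgenes. The comparison asks which genes the paired oncogenes change in thymocytes before leukemia.

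The values are log2 RMA intensities, the authors' normalised probe set signals, and every difference below is the arrays labelled SCLtg LMO1tg minus the control arrays on that log2 scale. *Lmo1*, one of the transgenic oncogenes, went against the labels, at 5.11, 5.07 and 4.86 in the arrays labelled SCLtg LMO1tg and 6.64, 6.84 and 6.77 in the control arrays, a difference of −1.74 (SE 0.14, limma adjusted p = 8.3e-04). The direction found here for *Slc5a9* is also opposite to the one the study gives, so each direction below holds for the labels as they stand. The gene of SCL, *Tal1*, lay below the limit on signal in all arrays, at 4.55, 4.63 and 4.71 in those labelled SCLtg LMO1tg and 4.35, 4.27 and 4.44 in the controls, a difference of 0.28 in the direction of the labels. Whether either probe set reads the transgene is not stated. Markers of double negative thymocytes averaged 9.37 to 9.98 per array over 10 genes, and *Dntt* stood between 12.81 and 12.89. Of these 10 genes 9 had higher means in the arrays labelled SCLtg LMO1tg. *Ptcra*, which encodes the pre-TCR alpha chain, differed by 1.28 (limma adjusted p = 0.0128). *Rag1* and *Rag2*, apart between the groups, differed by 0.97 (adjusted p = 0.184) and 0.82 (adjusted p = 0.266). The study reports that SCL inhibits *Ptcra* expression in a double negative cell line, which is opposite to the direction found here. It also names *Ptcra* as a direct target of the E proteins E2A and HEB, which SCL binds and inhibits. By RT-qPCR, it reports inhibited E protein target genes in sorted DN3 thymocytes that carry the SCL and LMO1 transgenes. The text for that result does not list the genes. Whether the group labels are correct was not tested. The arrays fall into sets by the signal of 9 bacterial hybridization control probe sets. In the high set, SCLtg LMO1tg replicate 1 and control replicates 2 and 3, their mean was 10.24 to 10.45, and in the low set, SCLtg LMO1tg replicates 2 and 3 and control replicate 1, it was 8.64 to 9.19. The sources used here leave unstated whether each array is a different mouse. The p-values therefore cover the spread between these samples alone, and 3 arrays per group limit the precision.

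Among the 165 members, 0 passed limma at an adjusted p under 0.05, where 14 of all 8693 genes (0.161%) did. Among the members whose groups did not overlap, the largest differences were in the mitochondrial ADP/ATP carriers *Slc25a4* and *Slc25a5* and the metal carrier *Slc11a2*, higher in the arrays labelled SCLtg LMO1tg, and in the magnesium carrier *Slc41a3* and the heme carrier *Slc48a1*, lower there. At an unadjusted p under 0.05, 7 members (4.24%) were higher and 2 (1.21%) were lower, against 6.30% and 3.14% of all genes. The 3 values of one group lay wholly above the 3 of the other, higher, in 7 members (4.24%, against 7.33% of all genes) and, lower, in 12 (7.27%, against 6.37%). Each of these shares is near or under the background. Rank products, the method named in the study, gave 0 members at a proportion of false positives under 0.1, where 1.00% of all genes passed. The study itself used a stricter limit and first removed probe sets called absent. Only with weights for array quality did members pass limma, 6 of them, in a fit that passed 541 genes in all. They were *Slc25a4*, *Slc25a5*, *Slc11a2*, *Slc30a9* and *Slc4a2*, higher, and *Slc41a3*, lower, where *Slc30a9*, a zinc carrier gene, lies outside the naming rule. Those weights ran from 0.44 to 4.96, the last for SCLtg LMO1tg replicate 2.

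The members as a group were tilted towards lower values. The mean was lower in the arrays labelled SCLtg LMO1tg for 107 of the 166 members (64.5%), against 51.3% of all genes. The median difference was −0.08 over the members and −0.01 over all genes tested. The tilt was of the size of the spread between arrays, since the median deviation of the members from their 6-array means was 0.01, −0.04 and −0.08 in the arrays labelled SCLtg LMO1tg and −0.03, 0.07 and 0.09 in the controls. Control replicate 1 thus overlapped the arrays labelled SCLtg LMO1tg. Within the low set of arrays the members' median difference was −0.01, and within the high set it was −0.04. Most members differed little, with 123 of 166 under 0.25 in absolute difference and 6 at 0.5 or more.

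*Slc5a9* encodes a sodium-dependent sugar cotransporter of the family that also holds the intestinal and renal glucose cotransporters. Its values were 8.18, 8.23 and 8.27 in the arrays labelled SCLtg LMO1tg and 7.06, 7.34 and 7.21 in the control arrays. The groups did not overlap, and the difference of 1.03 (SE 0.14) corresponds to 2.04-fold. The difference was 1.19 within the low set of arrays and 0.91 within the high set. A second probe set for the gene read 7.49, 7.87 and 7.72 against 7.11, 6.91 and 7.21, again without overlap, with a smaller difference of 0.61. Of the 13 other sugar carriers 11 had lower means, where 64.5% of all 166 members did. Among them were the glucose and fructose carrier genes *Slc2a4*, *Slc2a5* and *Slc2a8*, named outside the naming rule after their values were seen, with differences of −0.25, −0.25 and −0.24. None of the 13 was apart between the groups or reached an unadjusted p under 0.05. The median difference of the whole class was −0.13. It was −0.04 within the low set of arrays and −0.05 within the high set.

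**Figure D1:**
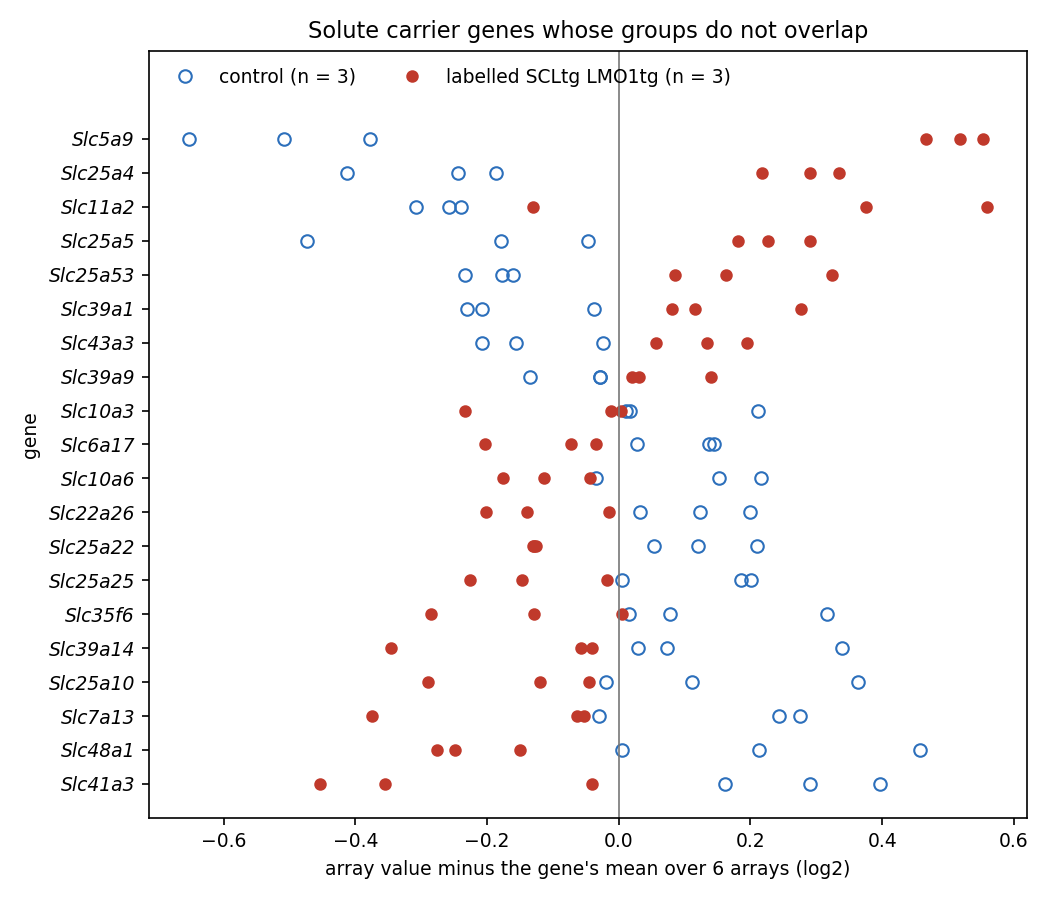
Each row is 1 solute carrier gene whose groups do not overlap, and each point is 1 array, filled red for labelled SCLtg LMO1tg (n = 3) and open blue for control (n = 3). The x axis is the array value minus that gene's mean over 6 arrays (log2); *Slc5a9* shows the widest separation, 7 further genes are higher and 12 are lower in the arrays labelled SCLtg LMO1tg.

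Apart from *Slc5a9*, the member with the smallest p was *Slc25a4*, of the mitochondrial carrier family Slc25. *Slc25a4* and *Slc25a5* encode carriers that export ATP from the mitochondrial matrix in exchange for ADP. *Slc25a4* read 8.34, 8.46 and 8.41 in the arrays labelled SCLtg LMO1tg and 7.94, 7.88 and 7.71 in the controls. The groups did not overlap and the replicates were close, with a difference of 0.56 (SE 0.14, unadjusted p = 0.00237, limma adjusted p = 0.215). *Slc25a5* read 11.02, 10.98 and 11.09 against 10.75, 10.32 and 10.62, a difference of 0.47 (SE 0.15, limma adjusted p = 0.387). Again every array labelled SCLtg LMO1tg lay above every control array. Within the low and high sets of arrays the differences were 0.50 and 0.55 for *Slc25a4* and 0.28 and 0.55 for *Slc25a5*.

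More than 1 probe set reads each of these genes. All 4 probe sets of *Slc25a4* had a higher mean in the arrays labelled SCLtg LMO1tg, 3 of them without overlap, and their differences ran from 0.02 to 0.56. The probe set with 0.02 read between 3.11 and 3.56 in every array. All 8 probe sets of *Slc25a5* had a higher mean, 6 without overlap, with differences from 0.08 to 0.57. The carriers are close paralogs, and probe sets whose name ends in x_at, the one read for each gene among them, hold probes that can bind other transcripts. How much of the signal is shared between the genes was not tested, so they are not counted as independent observations.

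**Figure D2:**
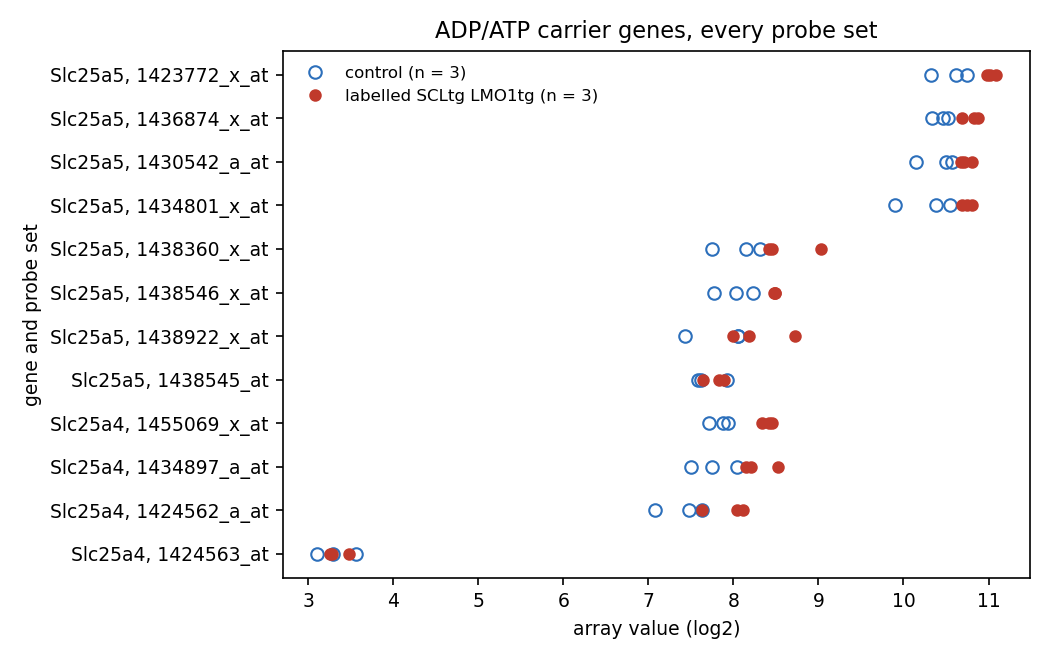
Every probe set of the ADP/ATP carrier genes *Slc25a4* (4 probe sets) and *Slc25a5* (8 probe sets) is a row, with the array value (log2) on the x axis, red for labelled SCLtg LMO1tg (n = 3) and open blue for control (n = 3). In 9 of the 12 rows all red points lie to the right of all blue points.

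SCL is a basic helix-loop-helix protein that binds E-box sequences with E proteins and, through LMO1 and its partners, joins larger complexes on DNA. The 250 bases before the annotated start are shown for the ADP/ATP carrier genes, both without overlap between the groups, and for *Slc41a3*, the member that lay furthest below the controls. They come from RefSeq on GRCm38.p6, 5′ to 3′ on the gene's strand, with matches to the E-box CAGNTG on either strand in capitals. 
*Slc25a4*, chr8:46211063-46211312, minus strand: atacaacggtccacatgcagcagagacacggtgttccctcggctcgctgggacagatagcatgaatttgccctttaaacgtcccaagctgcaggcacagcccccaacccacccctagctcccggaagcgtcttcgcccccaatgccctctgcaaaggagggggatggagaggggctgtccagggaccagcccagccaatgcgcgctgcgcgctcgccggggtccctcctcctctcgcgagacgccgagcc
*Slc25a5*, chrX:36795347-36795596, plus strand: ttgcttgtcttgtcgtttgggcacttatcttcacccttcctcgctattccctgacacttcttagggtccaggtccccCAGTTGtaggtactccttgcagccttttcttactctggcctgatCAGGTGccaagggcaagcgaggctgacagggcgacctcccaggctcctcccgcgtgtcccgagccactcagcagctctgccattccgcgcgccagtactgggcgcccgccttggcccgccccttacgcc
*Slc41a3*, chr6:90618996-90619245, plus strand: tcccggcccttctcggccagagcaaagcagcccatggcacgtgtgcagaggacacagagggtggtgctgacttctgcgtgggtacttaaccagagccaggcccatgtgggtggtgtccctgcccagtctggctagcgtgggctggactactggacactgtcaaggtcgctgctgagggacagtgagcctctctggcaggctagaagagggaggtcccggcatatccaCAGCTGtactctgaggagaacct
The window of *Slc25a4* held 0 matches, that of *Slc25a5* held 2 (CAGTTG and CAGGTG) and that of *Slc41a3* held 1 (CAGCTG), which starts 23 bases before the gene's start. The motif lay in 68 of the 175 windows (38.9%) listed for 130 of the members and in 44.8% of all 32851 windows of this length. Its palindromic form CAGCTG lay in 12.6% of the members' windows and 13.0% of all. A match describes letters in the window and says nothing about binding in these cells.

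Other Slc25 genes were spread to both sides. Of 28 members of the family measured, 15 had a higher and 13 a lower mean, and the median difference of 0.04 turned to −0.06 after quantile normalization of the arrays. *Slc25a53* read 7.58, 7.42 and 7.34 against 7.08, 7.10 and 7.02, without overlap, a difference of 0.38 (SE 0.14, limma adjusted p = 0.429). *Slc25a39*, which encodes the carrier that brings glutathione into mitochondria, differed by 0.41 (SE 0.18, adjusted p = 0.522), with overlap. The mitochondrial phosphate carrier gene *Slc25a3* differed by 0.28 (SE 0.22, adjusted p = 0.666), also with overlap. Its difference was −0.03 within the low set of arrays and ran from 0.04 to 0.48 when single arrays were left out.

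On the lower side the Slc25 genes without overlap were the dicarboxylate carrier gene *Slc25a10*, the ATP-magnesium/phosphate carrier gene *Slc25a25* and the glutamate carrier gene *Slc25a22*. *Slc25a22* had the tightest replicates, at 8.38, 8.38 and 8.37 against 8.56, 8.62 and 8.71, a difference of −0.26 (SE 0.13). *Slc25a10* differed by −0.30 (SE 0.15) and *Slc25a25* by −0.26 (SE 0.14). None of the 3 passed, with limma adjusted p = 0.57, 0.579 and 0.57 for *Slc25a10*, *Slc25a25* and *Slc25a22*. A second probe set for *Slc25a10* differed by −0.34.

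Metal and heme carriers held the members furthest below the controls and one of those furthest above. *Slc41a3*, a magnesium carrier, read 7.25, 6.93 and 6.84 against 7.45, 7.58 and 7.69. Every array labelled SCLtg LMO1tg lay below every control array, and the difference was −0.57 (SE 0.16, unadjusted p = 0.00527, limma adjusted p = 0.284). Its 3 probe sets all had lower means, by −0.57, −0.19 and −0.18. *Slc48a1*, which carries heme out of the endolysosome, read 6.77, 6.75 and 6.87 against 7.48, 7.24 and 7.03, a difference of −0.45 (SE 0.16, limma adjusted p = 0.405). The control arrays varied more than the arrays labelled SCLtg LMO1tg, with no overlap, and a second probe set differed by −0.23.

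*Slc11a2* encodes the proton-coupled importer of ferrous iron and other divalent metals. It read 7.25, 7.94 and 7.76 in the arrays labelled SCLtg LMO1tg and 7.15, 7.08 and 7.13 in the controls, a difference of 0.54 (SE 0.19, limma adjusted p = 0.405). The groups did not overlap, but SCLtg LMO1tg replicate 1 lay close to the controls. The difference was 0.71 within the low set of arrays and 0.15 within the high set. Of its 3 probe sets, a second differed by 0.39 without overlap and the third by 0.0046 with overlap.

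*Slc25a37* encodes mitoferrin 1, which brings iron into the mitochondria of red cell precursors. Its difference of 0.69 (SE 0.32, limma adjusted p = 0.534) was the largest among the members after *Slc5a9*, and it rested on scattered values. These were 7.18, 7.84 and 8.61 against 7.56, 6.99 and 7.01. SCLtg LMO1tg replicate 1 lay below control replicate 1, so the groups overlapped, and the difference ranged from 0.32 to 1.04 when each array was left out in turn. *Slc40a1*, which encodes the iron exporter ferroportin and is named outside the naming rule after its values were seen, differed the other way, by −0.33 (SE 0.18, adjusted p = 0.58).

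Markers of red cells were also higher on average in the arrays labelled SCLtg LMO1tg, but did not follow the carriers in every array. Of 14 erythroid marker genes listed, 9 were on the array, and their mean level was 5.62, 5.68 and 6.02 in the arrays labelled SCLtg LMO1tg and 5.36, 5.50 and 5.47 in the controls. The groups did not overlap, and the highest value belonged to SCLtg LMO1tg replicate 3, where *Slc25a37* was also highest. Control replicate 1 had the lowest erythroid mean and the highest *Slc25a37* value among the controls. Of the 4 markers above the limit, *Car2* and *Ermap* were higher without overlap, by 1.09 and 0.53, *Alas2* differed by 0.55 with overlap and *Klf1* by −0.03. None of the 4 passed limma, and *Hba-a1*, *Epb42*, *Car1*, *Rhag* and *Tal1* lay below the limit. *Hba-a1*, *Epb42*, *Car1* and *Rhag* differed by −0.09, −0.06, 0.03 and 0.67, so the averaged genes did not all rise. *Tal1* is the gene of SCL itself, so the label bears on 1 of the 9 averaged genes. Its difference was 0.28. Of 12 carriers listed for red cell precursors, 7 were members, and their median difference was 0.41. The list also holds genes not specific to those cells, such as *Slc66a2*, grouped here with the amino acid carriers. The 4 with a higher mean were *Slc25a37*, *Slc11a2*, *Slc25a39* and *Slc66a2*, the last in only 1 of its 3 probe sets. The 3 with a lower mean were *Slc48a1* (−0.45), *Slc25a38* (−0.18) and *Slc6a9* (−0.05). *Slc25a39*, *Slc25a38* and *Slc6a9* are named outside the naming rule. The part of red cell RNA in the values of *Slc11a2* and *Slc25a37* was not tested. In bulk RNA, fewer cells of a type and less RNA per cell cannot be told apart.

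**Figure D3:**
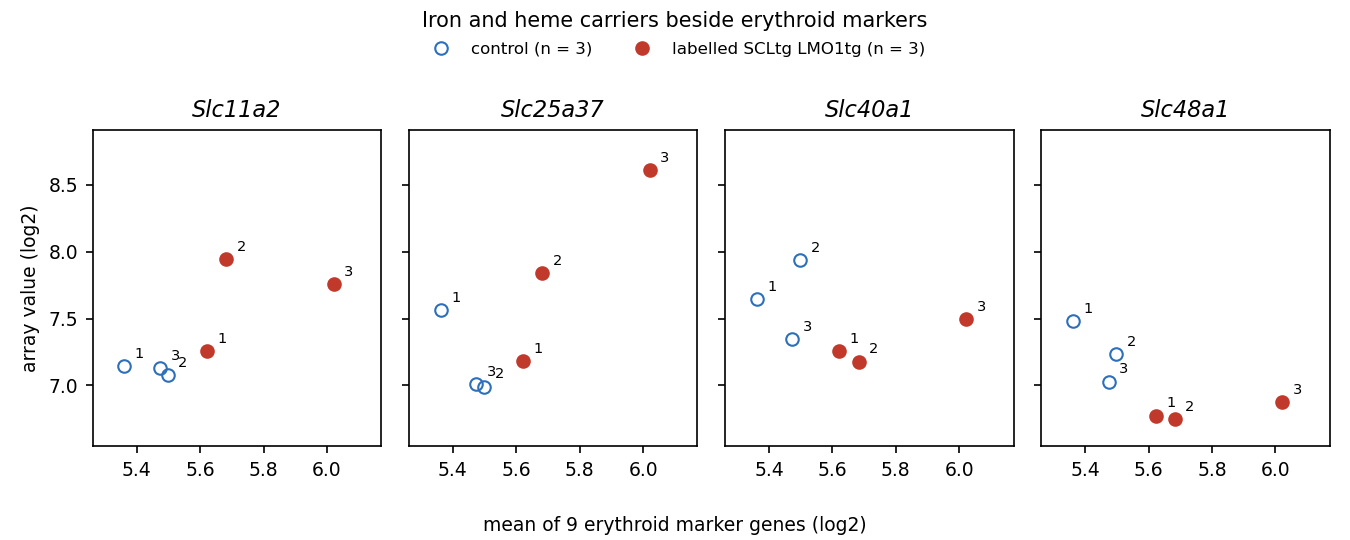
Array values (log2, y axis) of the iron and heme carriers *Slc11a2*, *Slc25a37*, *Slc40a1* and *Slc48a1* are set against the mean of 9 erythroid marker genes (log2, x axis), 1 point per array numbered by replicate, red for labelled SCLtg LMO1tg (n = 3) and open blue for control (n = 3). The erythroid mean lies above 5.6 in all 3 red arrays and at or below 5.50 in the blue ones. *Slc25a37* is highest in SCLtg LMO1tg replicate 3, at 8.61. The 9 marker genes include *Tal1*, the gene of SCL, and 4 of the 9 lie above the limit on signal.

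The remaining metal carriers were divided. Over all 23 members of the class 9 had higher and 14 lower means, and the median of −0.03 turned to 0.02 when arrays were centred on their medians. The zinc importer genes *Slc39a1* and *Slc39a9* were higher without overlap, by 0.32 (SE 0.14) and 0.13 (SE 0.13), whereas *Slc39a14*, which encodes an importer of zinc, iron and manganese, was lower without overlap, by −0.29 (SE 0.16). Their limma adjusted p were 0.522, 0.726 and 0.576. Other probe sets did not share these directions for *Slc39a9*, at −0.13 and −0.002, nor for *Slc39a14*, at 0.06. *Slc39a6*, another zinc importer gene, differed by 0.22 (SE 0.25) with overlap, or −0.0072 in a fit with the set of arrays as a block.

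Amino acid carriers lay to both sides of zero. Of 27 members 10 had higher and 17 lower means, the median was −0.05, or 0.0006 in a fit with the set of arrays as a block. The carriers of large neutral amino acids and glutamine that dividing T cells use differed little. *Slc7a5* differed by 0.09 (SE 0.20), its partner subunit *Slc3a2* by 0.06 (SE 0.27) and *Slc1a5* by −0.01 (SE 0.16), all with overlap and named outside the naming rule for their role. The glutamine carrier gene *Slc38a1* differed by 0.10 (SE 0.14). That direction turned after quantile normalization, to −0.08. *Slc66a2* differed by 0.49 (SE 0.20, unadjusted p = 0.0339, limma adjusted p = 0.487) with overlap, while the 2 other probe sets of the gene gave −0.01 and −0.02. *Slc7a13* was lower without overlap, by −0.33 (SE 0.16, adjusted p = 0.549).

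Nucleoside carriers numbered 5. *Slc29a1*, the equilibrative carrier through which cells salvage nucleosides, read 6.42, 6.80 and 6.64 against 6.31, 6.51 and 5.84. The groups overlapped, with a difference of 0.40 (SE 0.20, adjusted p = 0.549), and control replicate 3 was the lowest array. *Slc43a3*, a carrier of purine nucleobases, was higher without overlap, by 0.26 (SE 0.14, adjusted p = 0.575). The lysosomal carrier gene *Slc29a3* differed by −0.14 (SE 0.15). The class median of −0.02 turned to 0.04 after quantile normalization and to 0.03 after median centring.

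Carriers of organic ions, amines and urea leaned one way, with 12 of 13 means lower and a median of −0.12. Of all 166 members 64.5% had lower means. All 13 had a mean signal below 8. Of all genes, 27.2% had higher means below a signal of 6, 40.9% between 6 and 7 and 59.7% between 7 and 8. The class median was 0.0029 within the low set of arrays and −0.18 within the high set. The organic ion carrier gene *Slc22a26* was lower without overlap, by −0.24 (SE 0.14, adjusted p = 0.598), as were *Slc10a3* and *Slc10a6* of the bile acid carrier family, by −0.16 (SE 0.14) and −0.22 (SE 0.14), named outside the naming rule. Many genes of this class are known best from liver and kidney, and here 16 of 29 on the array lay below the limit on signal. Among the kept ones the urate exchanger gene *Slc22a12* differed by −0.12 (SE 0.15).

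The other classes lay close to the members' median. Sodium, potassium, calcium and proton carriers had a median of −0.09, with *Slc9b1* at −0.30 (SE 0.16) and the potassium-chloride cotransporter gene *Slc12a7* at 0.21 (SE 0.17). Anion carriers had a median of −0.11, which turned to 0.05 within the low set and 0.02 within the high set of arrays. Their bicarbonate-chloride exchanger gene *Slc4a2* differed by 0.47 (SE 0.24, adjusted p = 0.57), with overlap, and the iodide carrier gene *Slc5a5* by −0.33 (SE 0.20).

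The class of nucleotide sugars and other Golgi or endoplasmic reticulum substrates had a median of −0.07 over 16 members. *Slc35f6*, grouped there, was lower without overlap, by −0.27 (SE 0.15). Vitamin and choline carriers had a median of −0.08 over 9, with the choline carrier gene *Slc44a2* at −0.09 (SE 0.18) and *Slc46a3* at −0.27 (SE 0.17). The phosphate importer gene *Slc20a1* differed by 0.31 (SE 0.20) beside 2 lower members, but by 0.02 within the high set of arrays, and it ran from 0.14 to 0.51 when single arrays were left out. The fatty acid carrier gene *Slc27a1* differed by −0.29 (SE 0.15), and the monocarboxylate family member *Slc16a11* by −0.16 (SE 0.16). Of the named genes in these classes none had an adjusted p under 0.57. The 3 genes that carry the family's symbol but encode other proteins, among them the scaffold *Slc9a3r1*, differed by 0.03 to 0.12.

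**Figure D4:**
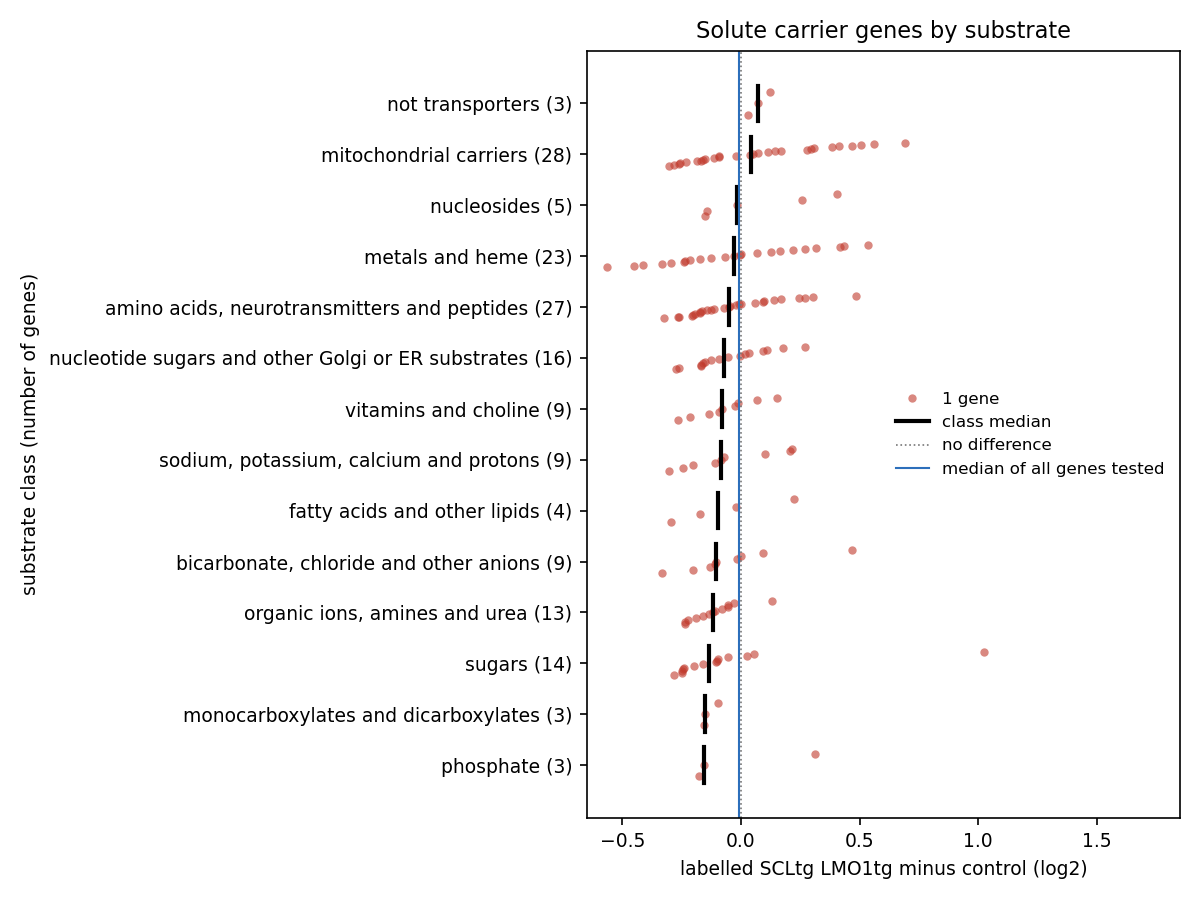
Each point is 1 of the 166 solute carrier genes, placed by substrate class (rows, number of genes in parentheses) and by its difference, labelled SCLtg LMO1tg minus control (log2, x axis). Black bars are class medians, from −0.16 for phosphate to 0.07 for the genes that are not transporters, the blue line is the median of all genes tested (−0.01), and the far right point among the sugars is *Slc5a9* at 1.03.

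The differences varied with signal. Of the 20 members with a mean of 8 or more 17 were higher (85.0%), against 73.7% of all genes at that signal, and their median difference was 0.21 against 0.15. After quantile normalization these medians were 0.06 and 0.01. In the next lower range, from 7 to 8, the members went the other way from all genes. There 12 of 38 were higher (31.6%, against 59.7% of all genes), with medians of −0.10 and 0.06, or −0.18 and −0.03 after quantile normalization. Between 6 and 7 the medians were −0.10 and −0.05, and below 6 they were −0.11 and −0.10. Of the 20 bright members 9 were Slc25 genes, so class and signal cannot be told apart in these counts.

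**Figure D5:**
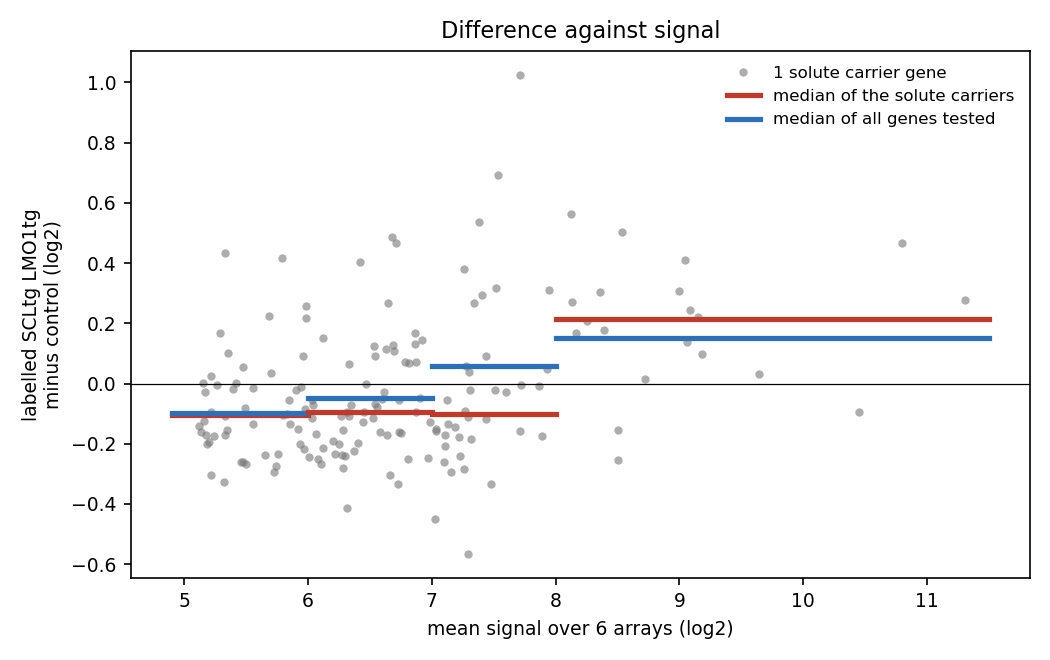
Each grey point is 1 of the 166 solute carrier genes, with its mean signal over 6 arrays (log2) on the x axis and the difference labelled SCLtg LMO1tg minus control (log2) on the y axis. Horizontal bars are medians within 4 ranges of signal, red for the solute carriers and blue for all genes tested; above a signal of 8 both lie above 0, at 0.21 and 0.15, and between 7 and 8 they lie on either side of it, at −0.10 and 0.06.

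Replicates of the members agreed about as well as those of other genes, with a median pooled SD of 0.18 against 0.20. *Slc15a2*, a peptide carrier gene outside the naming rule, varied most, with an SD of 0.70 and values from 7.56 to 9.16. Markers of other cells also moved with the labels. The mean of 12 neutrophil markers was 6.50 to 7.09 in the arrays labelled SCLtg LMO1tg and 5.67 to 6.35 in the controls. Of these 12 genes 8 had higher means, 6 of them without overlap. The lower ones were *Elane*, *Mmp8*, *Csf3r* and *Cxcr2*, by −0.12, −0.02, −0.05 and −0.14. The mean of 7 B cell markers was 5.21 to 5.41 against 5.53 to 5.86. Of these, *Cd79a* and *Ms4a1* were lower without overlap, by −0.64 and −0.77. *Blnk*, *Cd22* and *Cd79b* overlapped, at −0.39, −0.34 and 0.01. *Pax5* and *Ebf1* lay below the limit on signal, at −0.31 and −0.08. Macrophage and dendritic markers overlapped, at 6.21 to 6.58 against 6.21 to 6.35, and so did markers of thymic stroma, at 5.64 to 5.90 against 5.70 to 5.87. Of 12 carriers listed for phagocytes, 5 were members, 4 of them with lower means and a median difference of −0.19. The part of other cells in the members' values was not tested.

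Genes that work beside the carriers, such as sodium pump subunits, pyruvate and iron handling proteins and metallothioneins, were also measured. Of 39 listed, 28 were on the array and 25 above the limit, and 0 passed limma at an adjusted p under 0.05. At an unadjusted p under 0.05, 0 were higher and 1 was lower, against 6.30% and 3.14% of all genes, so the count is near or under the background. The 1 was *Mt2*, which encodes a zinc-binding metallothionein, at 6.46, 6.08 and 6.20 against 6.60, 6.56 and 6.99, a difference of −0.47 (SE 0.17, adjusted p = 0.436) without overlap. Its paralog *Mt1* differed by −0.36 (SE 0.19, adjusted p = 0.57) with overlap. The median of the 25 was 0.03.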

How the data were processed

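RNA of 6 thymocyte samples, 3 labelled SCLtg LMO1tg and 3 control, was measured on Affymetrix arrays. The authors deposited log2 values for 22690 probe sets, summarized and normalized by RMA of the affy package. Their MAS5 filter for absent probe sets and their Rank Products analysis are not part of the deposited values. Versions are not given in the sources used here, and array values carry no read depth. Of the probe sets, 20393 are annotated to 1 gene, 691 to more than 1 and 1606 to no gene. All 166 members matched RefSeq by gene number. Groups were compared over all 8693 genes with limma 3.58.1 in R 4.3.3 without covariates, with Benjamini-Hochberg adjustment over all of them. Rank products used 9 pairwise differences and 100 permutations. The procedures were tested on simulated data. The members, substrate classes and marker lists were chosen with earlier results of these data known. The naming rule takes *Slc5a9*, up to 8 members per direction with the largest difference among those without overlap, the brightest and the most different member of each class, those nearest the limit on signal, and the 2 most different transport partners. Alternatives were no limit or the 60th percentile, quantile normalization, median centring, a trend and robust variance, array weights, blocks for replicate number and hybridization set, averaged probe sets, each array left out, and an adjusted p under 0.1.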

Additional observations from a re-analysis of the deposited data

How the results depend on the processing

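Of the 165 members, 0 passed limma under every alternative but array weights, where 6 passed. Over all genes 14 passed, against 541 with array weights, 87 by rank products and 7 to 33 under the others. The members' median difference kept its sign in all, from −0.11 to −0.03, and from −0.11 to −0.05 when single arrays were left out. Residuals of same-numbered arrays correlated at −0.64, 0.01 and −0.38, and the numbers were therefore not used as pairs. With the replicate block 0 members passed, 9 genes in all against 14, and the median stayed at −0.08. The difference of *Slc5a9* ran from 0.82, as the mean of its probe sets, to 1.09. Of 41 named genes, 32 kept their direction throughout. In the other 9, all with small differences, it turned. After quantile normalization the values were −0.0762 for *Slc38a1*, 0.0107 for *Slc27a4*, −0.145 for *Slc9a3r1*, −0.13 for *Slc35a4* and 0.041 for *Slc22a13*. Median centring gave 0.0254 for *Slc27a4* and 0.0195 for *Slc22a13*. Array weights gave −0.0526 for *Slc35a4* and 0.0729 for *Slc44a2*. A block for the hybridization set gave −0.0072 for *Slc39a6*, −0.0267 for *Slc9a3r1* and 0.0109 for *Slc22a13*. The mean of probe sets gave −0.0011 for *Slc39a9*. With single arrays left out, values ran from −0.0802 to 0.0336 for *Slc27a4*, −0.0413 to 0.113 for *Slc9a3r1*, −0.136 to 0.224 for *Slc35a4*, −0.29 to 0.0333 for *Slc44a2*, −0.0209 to 0.196 for *Slc4a1ap* and −0.0707 to 0.0128 for *Slc22a13*. The causes were not tested. With 3 arrays per group, each of these 9 genes differed by less than its standard error.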
